A study of Mus musculus with 40 samples.

Results

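ADAM and ADAMTS metalloproteases were measured in bulk RNA sequencing of hearts from CM-Il11-Tg mice, which make IL11 in cardiomyocytes after tamoxifen. The family was taken as every listed gene whose symbol starts with Adam and a digit, or with Adamts, including the Adamtsl genes, with a value of at least 0.5 CPM (reads per gene scaled to the library size) in at least 3 libraries of its table. That gave 33 genes of 16931 tested in males and 36 of 16956 tested in females, 33 of them in both, and 36 names were listed in all. Adamts19 and Adamts20 fell under the limit in males, and Adam5 had no row in the male table.

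The mice came from a cross of a C57BL/6N Rosa26-Il11 line with C57BL6/J α-MHC-MerCreMer (MCM) animals, in which the α-MHC promoter drives a tamoxifen-activated Cre recombinase in cardiomyocytes. CM-Il11-Tg mice carried 1 copy of each (MCM Cre/+ : R26R Il11/+), control littermates carried the Cre alone (MCM Cre/+ : R26 +/+), and so every heart, control or not, held the MCM transgene. Tamoxifen was given into the peritoneum at 20 mg/kg on 5 consecutive days from 8 weeks of age, to the controls as well, and CM-Il11-Tg hearts were taken 1, 3 and 6 weeks after induction. Uninduced CM-Il11-Tg hearts came from mice without tamoxifen, and the time of the controls was labelled only as baseline, so that weeks after induction and the age of the mice cannot be told apart in comparisons with them. Nor can these be told apart between weeks. Uninduced hearts also differ from 6-week hearts in tamoxifen and the Cre it activates, and from controls in tamoxifen and genotype. These differences cannot be told apart from that in Il11. There were 4 hearts per group and sex, except 3 male controls and 3 male 6-week hearts, because the labels of 2 male libraries contradicted each other and these were left out. Male and female tables had been scaled separately, so each comparison was made within a sex, and the 3 weeks share the same controls.

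ADAMs (a disintegrin and metalloproteinase) are membrane-anchored proteins, and the catalytic ones cut the outer part of other membrane proteins, releasing growth factors, cytokines and soluble receptors, a process called ectodomain shedding. ADAMTS proteases carry thrombospondin repeats in place of a membrane anchor, are secreted into the extracellular matrix, and process procollagens, cleave proteoglycans such as aggrecan and versican, or act on fibrillin microfibrils and cartilage oligomeric matrix protein (COMP). ADAMTS-like proteins have the thrombospondin repeats but no protease domain and bind microfibrils. In the heart the family is known from valve and cushion development and from matrix remodelling after injury. ADAM10 releases the soluble forms of the IL11 and IL6 receptors, and ADAM17 that of the IL6 receptor.

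Whether a member can cut at all rests on a stretch of codons for the histidines that hold the catalytic zinc. The zinc-binding consensus of the metzincins was searched in frame in the coding sequence of the canonical transcript of each member (mouse genome GRCm39, GENCODE vM39 annotation). It was found in 26 of the 36 members and not in Adam2, Adam5, Adam11, Adam22, Adam23 or any of the 5 Adamtsl genes. The sites below are those of members on which the results turn, printed 5′ to 3′ on the coding strand, with the 3 histidine codons and the eighth codon in capitals.
Adam12: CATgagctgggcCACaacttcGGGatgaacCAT
Adam19: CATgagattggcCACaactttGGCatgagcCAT
Adam9: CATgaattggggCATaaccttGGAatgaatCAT
Adam17: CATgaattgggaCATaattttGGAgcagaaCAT
Adam1a: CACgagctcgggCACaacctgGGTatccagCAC
Adam1b: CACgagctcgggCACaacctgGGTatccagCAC
Adamts2: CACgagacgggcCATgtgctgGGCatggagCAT
Adamts15: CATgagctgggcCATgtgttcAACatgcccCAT
Adamts8: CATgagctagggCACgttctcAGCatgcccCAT
The eighth codon read glycine in 20 of the 26 members, among them all 10 catalytic ADAMs. It read asparagine in Adamts1, Adamts4, Adamts9, Adamts15 and Adamts20 and serine in Adamts8, all 6 of them proteoglycanases, whereas Adamts5, the remaining proteoglycanase, read glycine. The sites of Adam12 (chr7:133562887-133562919, minus strand), Adam19 (chr11:46015877-46015909, plus strand), Adam9 (chr8:25480342-25480374, minus strand) and Adam17 (chr12:21386733-21386765, minus strand) each lay in the coding part of exon 11 of the transcript. Those of Adamts2 (chr11:50666230-50666961, plus strand, exons 7 and 8), Adamts15 (chr9:30822551-30822986, minus strand, exons 2 and 3) and Adamts8 (chr9:30864017-30864674, plus strand, exons 3 and 4) were split by an intron, which the positions include. Adam1a (chr5:121658152-121658184) and Adam1b (chr5:121640000-121640032), both on the minus strand, had the same letters throughout this stretch. Of the 60-base stretches of their exons, 30.4% in Adam1a and 31.9% in Adam1b were shared with the other gene. A 60-base read within such a stretch cannot be assigned to either gene by itself. Per the study's methods the reads were paired, and how often a mate settles the assignment was not examined. The separate values of Adam1a and Adam1b are therefore uncertain. Members without the site included Adam11 (chr11:102652229-102671088), Adamtsl1 (chr4:85432409-86346622) and Adamtsl2 (chr2:26949885-26998993), all on the plus strand. Members overlapped on the opposite strand by another protein-coding gene included Adam9 (Tm2d2), Adam17 (Iah1), Adamts7 (Tbc1d2b) and Adamtsl2 (Mymk), and Sh3gl2 overlaps Adamtsl1 on the same strand. The library kit keeps the strand but the strand setting of the read counting is not given in the sources used here, so these values may hold reads of both genes.

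The male libraries held 16663513 to 65333832 reads on listed genes, and the female libraries 19147947 to 30929192. Il11 itself was at 0 to 0.166 CPM in the 7 controls, at 15.5 to 49.1 CPM in the 8 uninduced hearts and at 328 to 819 CPM in the 23 induced hearts, so the uninduced hearts were not free of Il11 RNA. Cardiomyocyte markers were abundant in every library and summed to 53147 to 64406 CPM in male controls and 34353 to 44907 CPM at 6 weeks, without overlap, and to 38282 to 56862 and 33576 to 43318 CPM in females, with overlap. Atrial markers summed to 729 CPM in female 6-week replicate 2 and 119 CPM in female 1-week replicate 2 against at most 3.14 CPM elsewhere. Nuclear-retained RNAs (Malat1, Neat1, Kcnq1ot1 and Meg3) summed to 341 to 560 CPM in 5 female libraries, namely uninduced replicate 4, 1-week replicate 2 and 6-week replicates 2, 3 and 4, and to 1176 to 2741 CPM in the other 15. Fibroblast markers summed to 1292 to 1480 CPM in male controls and 2498 to 2663 CPM at 6 weeks, and to 1764 to 2013 and 2817 to 4430 CPM in females. Macrophage markers went from 206 to 335 up to 857 to 1207 CPM in males and from 188 to 246 up to 1041 to 1188 CPM in females, whereas endothelial markers went from 1049 to 1199 down to 695 to 891 CPM and from 987 to 1109 down to 643 to 851 CPM. All 8 macrophage markers were called higher in each sex (all genes at 6 weeks, 16.2% in males and 21.7% in females). Pericyte and smooth muscle markers went from 945 to 1178 down to 613 to 701 CPM in males and from 924 to 1027 down to 584 to 893 CPM in females. Of these markers 2 of 7 were called lower in each sex (all genes at 6 weeks, 10.9% in males and 21% in females), near the share of all genes in females. Calls within the other marker lists are not given here, so those shifts are known from sums only. The part of these shifts in the results that follow was not tested, and in bulk tissue fewer cells of a type and less RNA per cell cannot be told apart.

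Members called at an adjusted p under 0.05 were mostly higher after induction, in both sexes and at every week. Fits were made with limma across all tested genes on log2(CPM + 0.5), so that every difference below is on that scale unless stated, and it understates the change of low genes. In males 16 of 33 members were called at 1 week (13 higher, 3 lower), against 33.5% of all genes tested. At 3 weeks 15 were called (12 higher, 3 lower; all genes, 21.3%) and at 6 weeks 16 (13 higher, 3 lower; all genes, 27.1%). In females 17 of 36 members were called at 1 week (13 higher, 4 lower), against 28.4% of all genes. At 3 weeks 17 were called (12 higher, 5 lower; all genes, 31.3%) and at 6 weeks 22 (14 higher, 8 lower; all genes, 42.7%). Over all genes the share called higher at 1, 3 and 6 weeks was 18.9%, 13.2% and 16.2% in males and 15.3%, 16.8% and 21.7% in females, and the share called lower was 14.6%, 8.1% and 10.9% in males and 13.1%, 14.5% and 21% in females. Among calls of at least 1 log2 unit, 7, 5 and 7 male members were called at 1, 3 and 6 weeks (all genes, 8.07%, 6.75% and 8.5%) and 9, 8 and 14 female members (all genes, 7.35%, 8.04% and 11.7%). Without the 5 female libraries low in nuclear RNAs, which left 1 female 6-week heart that is assumed to vary like the other groups, 14 female members were called at 6 weeks (11 higher, 3 lower), against 19.5% of all genes. Some female 6-week calls given below with no value at that setting were lost in it too. These losses lie among Adam2, Adam5, Adam15, Adamts4, Adamts5, Adamts7 and Adamtsl4, whose female 6-week calls are to be read with that limit. With 1 heart left out at a time, 8, 7 and 8 of the male calls at 1, 3 and 6 weeks and 12, 10 and 21 of the female calls were kept under every omission. The share of calls kept in this way over all genes was not counted. The heat map of changes shows the members by role.

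**Figure D1:**
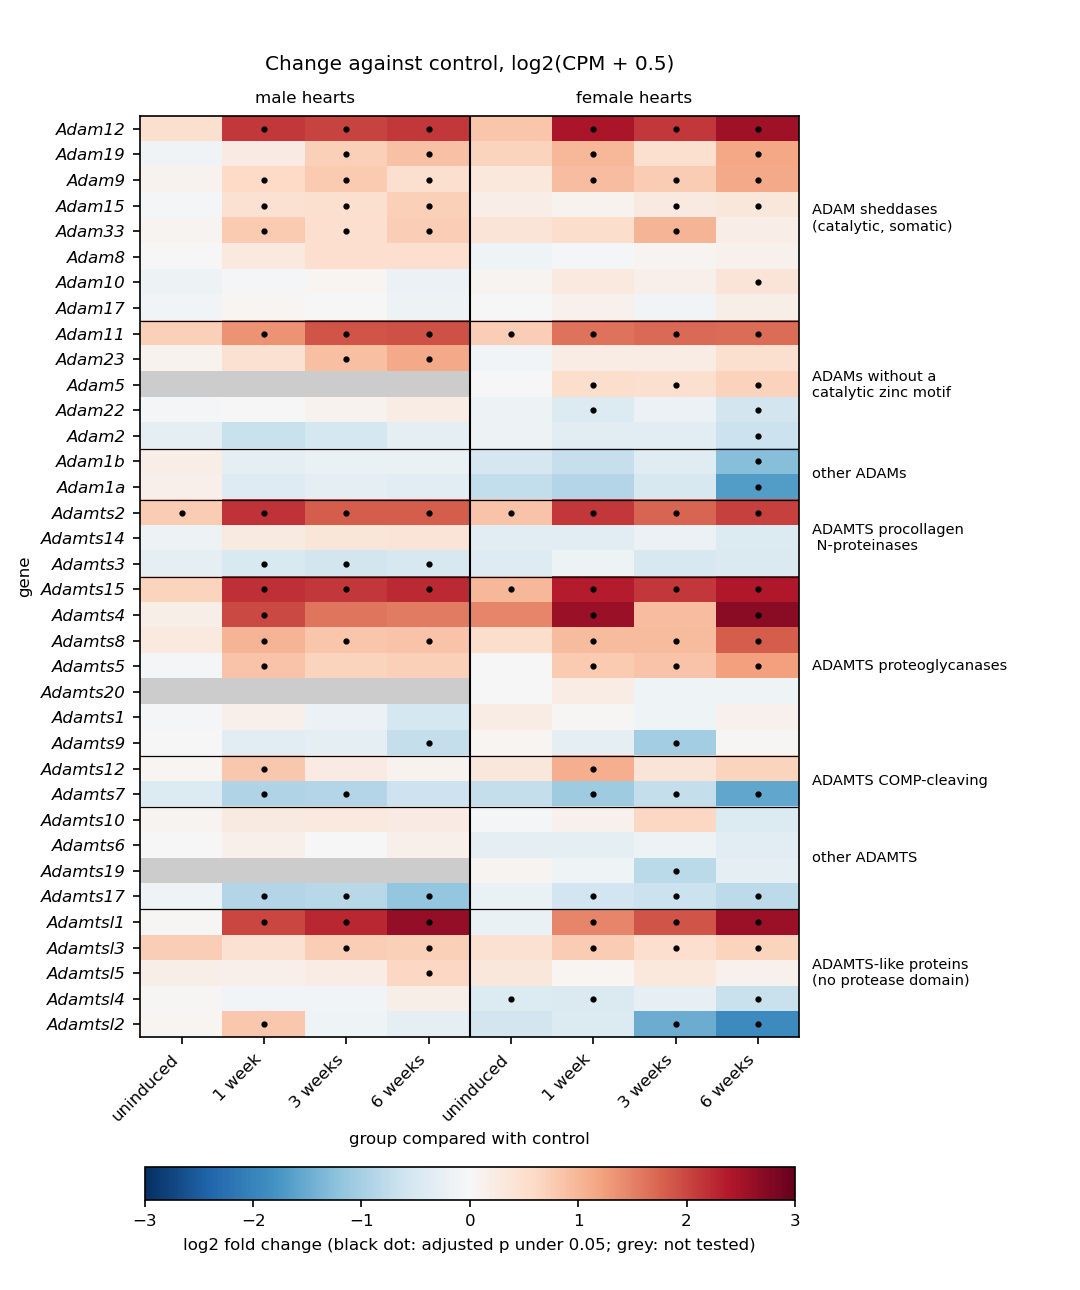
Log2 fold change against control of each member (rows, grouped by role) in uninduced, 1-week, 3-week and 6-week hearts (columns) of males and females, from the limma fit on log2(CPM + 0.5); red is higher, blue is lower, black dots mark an adjusted p under 0.05 and grey marks genes not tested in males. Adam12, Adam11, Adamts2, Adamts15 and Adamtsl1 are deep red with a dot at 1, 3 and 6 weeks in both sexes.

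Of the 8 catalytic sheddases tested in each sex, 5 were called higher at 6 weeks in males and 5 in females, and none lower (median log2 fold change 0.61 and 0.36; all genes, -0.01 and -0.02). Adam12 (meltrin α), which sheds HB-EGF and cleaves insulin-like growth factor binding proteins and is scarce in most resting adult tissue, had the largest change among them. Values are listed in the order of replicates, which for male control and 6-week hearts are 1, 3 and 4. Adam12 was at 0.825, 0.568 and 1.48 CPM in the male controls and at 5.49, 5.65 and 5.71 CPM in the male 6-week hearts. In females it was at 0.603, 0.339, 1.601 and 0.942 CPM in the controls and 7.33, 5.54, 13.6 and 4.41 CPM at 6 weeks. Every 6-week heart lay above every control of its sex, and female 6-week replicate 3 was highest. The change was 2.12 ± 0.25 (adjusted p = 3.20e-06) in males and 2.55 ± 0.32 (adjusted p = 2.23e-06) in females, where ± is the standard error. It was already present at 1 week (2.13 and 2.45) and at 3 weeks (2.03 and 2.11), and without the 5 female libraries low in nuclear RNAs the 6-week value was 2.60 (adjusted p = 4.06e-04).

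Adam9 (meltrin γ), a widely expressed sheddase, was at 47.9, 54.3 and 56.4 CPM in male controls and 79.4, 94.7 and 54.4 CPM in male 6-week hearts, the last of these, replicate 4, within the control range. Female values were 42.9, 41.5, 45.3 and 35.6 CPM in controls and 75.3, 85.3, 114 and 91.3 CPM at 6 weeks, with no overlap. The change was 0.49 ± 0.17 (adjusted p = 0.0425) in males and 1.13 ± 0.13 (adjusted p = 1.09e-06) in females, and it was called at every week in both sexes. In males the 6-week call was lost without any 1 of the 3 controls and without 6-week replicate 1 or 3 (log2 fold change 0.31 to 0.71 over all omissions of 1 heart), and without replicate 4 the change was 0.71 (adjusted p = 0.00234).

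Adam19 (meltrin β), a neuregulin sheddase needed for endocardial cushion development, was at 30.99, 27.2 and 32.7 CPM in male controls and 72.98, 54.1 and 43.5 CPM at 6 weeks. Among females it was at 17.6, 17.1, 42.1 and 22.7 and 71.8, 62.9, 64.2 and 25.7 CPM, and here 6-week replicate 4 lay below the highest control, replicate 3. The change was 0.87 ± 0.27 (adjusted p = 0.0221) in males and 1.16 ± 0.34 (adjusted p = 0.00922) in females at 6 weeks, 0.72 ± 0.25 (adjusted p = 0.0488) and 0.48 ± 0.34 (adjusted p = 0.3) at 3 weeks and 0.24 ± 0.25 (adjusted p = 0.488) and 1.00 ± 0.34 (adjusted p = 0.0298) at 1 week. The male 6-week call was lost without control replicate 3 or 6-week replicate 1 (log2 fold change 0.67 to 1.04 over omissions of 1 heart). The male 3-week call was lost without any 1 control or without 3-week replicate 1 or 2, and the female 1-week call without control replicate 1, 2 or 4 or 1-week replicate 2, 3 or 4.

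Adam15 (metargidin), an ADAM with an integrin-binding motif found in endothelium, was at 51.4 to 67.98 CPM in male controls and 76.9 to 124 CPM at 6 weeks (0.72 ± 0.17, adjusted p = 0.00333). In females the ranges were 61.5 to 65.96 and 73.8 to 85.8 CPM (0.34 ± 0.09, adjusted p = 0.00631). The male calls of Adam15 at 1 and 3 weeks (0.46 and 0.48) were lost without control replicate 3 or 4, without 1-week replicate 4, or without 3-week replicate 1 or 3 (limma, adjusted p up to 0.144 and 0.1603), and its female 3-week call (0.27) without any 1 control or without 3-week replicate 1, 3 or 4. Adam33, known as an asthma susceptibility gene, was called at every week in males (0.79, 0.51 and 0.74), though the 3-week call was lost without control replicate 1 or 3 or 3-week replicate 1 or 2 (limma, adjusted p up to 0.118). In females it was called at 3 weeks only (1.02 ± 0.28, adjusted p = 0.00939) in the fit of all hearts, and its 6-week value went from 0.20 ± 0.28 (adjusted p = 0.593) to 0.86 (adjusted p = 0.0201) when the 5 libraries low in nuclear RNAs were left out. Adam8, a sheddase of leukocytes, was not called at any week, at 0.51 ± 0.20 (adjusted p = 0.0654) in males and 0.13 ± 0.23 (adjusted p = 0.676) in females at 6 weeks.

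The main receptor sheddases differed little from control. Adam10, which cleaves Notch, the amyloid precursor protein and the IL11 and IL6 receptors, was at 38.1, 40.6 and 50.5 CPM in male controls and 43.5, 45.8 and 27.6 CPM in male 6-week hearts, with replicate 4 lowest. The female hearts were at 36.04, 36.6, 43.3 and 37.7 and 40.8, 47.8, 67.8 and 46.8 CPM. The 6-week change was -0.17 ± 0.17 (adjusted p = 0.496) in males (95% interval -0.51 to 0.18) and 0.38 ± 0.12 (adjusted p = 0.0144) in females, a call lost without 6-week replicate 3 (0.23, adjusted p = 0.0604) and without the 5 libraries low in nuclear RNAs (0.09, adjusted p = 0.673). Adam17, the TNF-converting enzyme, was at 42.01, 33.2 and 42.1 CPM in male controls against 35.6, 39.8 and 29.6 CPM at 6 weeks, and at 33.5, 35.9, 34.8 and 32.3 against 38.2, 37.2, 46.4 and 32.9 CPM in females. It was not called at any week, with intervals of -0.42 to 0.10 in males and -0.02 to 0.36 in females at 6 weeks. These small values depended on the scaling. With libraries scaled to total reads, which moved the median of all genes at 6 weeks to 0.16 in males and 0.33 in females, the female 6-week changes were 0.77 (adjusted p = 4.93e-05) for Adam10 and 0.56 (adjusted p = 5.59e-05) for Adam17.

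**Figure D2:**
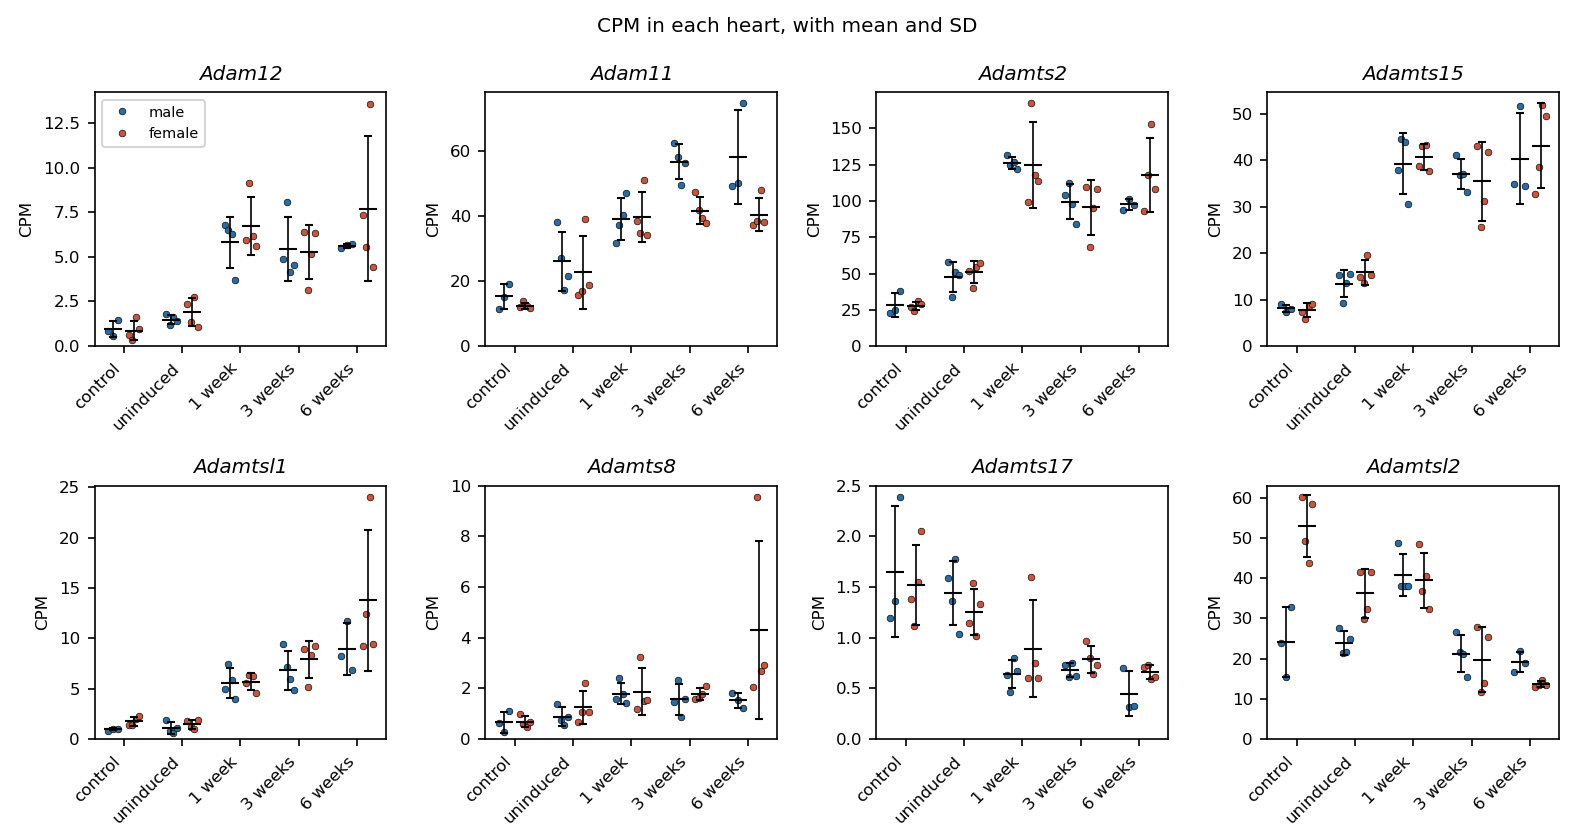
CPM (vertical axes, linear from 0) of 8 members in each heart, by group (horizontal axes), males in blue and females in red; each point is a heart, bars the mean and SD of 3 or 4 hearts. Adam12, Adam11, Adamts2, Adamts15 and Adamtsl1 of the induced hearts lie above all controls, Adamts17 of the 6-week hearts lies below them, and Adamtsl2 shows a rise in males at 1 week and a fall in females at 3 and 6 weeks.

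Among ADAMs without the zinc site, 2 of 4 tested were called higher in males at 6 weeks and none lower, and in females 2 of 5 were higher and 2 lower. Adam11, which with Adam22 and Adam23 is known as a receptor of LGI proteins in the nervous system, was at 11.4, 15.2 and 19.3 CPM in male controls and 49.3, 50.4 and 75.02 CPM at 6 weeks. In females it was at 11.9, 13.7, 12.3 and 11.6 CPM in controls and 37.3, 38.5, 48.1 and 38.3 CPM at 6 weeks. The groups did not overlap in either sex, and the change was 1.90 ± 0.23 (adjusted p = 5.31e-06) in males and 1.67 ± 0.20 (adjusted p = 1.11e-06) in females, with calls at every week. Adam23 was called in males at 3 weeks (0.90 ± 0.29, adjusted p = 0.0287) and 6 weeks (1.13 ± 0.31, adjusted p = 0.00948). The first call was lost without control replicate 1 or 4 or 3-week replicate 1, 2 or 3 (limma, adjusted p up to 0.0981) and the second without 6-week replicate 1 (limma, adjusted p = 0.0506). In females its 6-week value was 0.47 ± 0.24 (adjusted p = 0.115).

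Adam22 was lower in females at 1 week (-0.40 ± 0.15, adjusted p = 0.0459, a call lost without control replicate 1, 2 or 3 or 1-week replicate 2, 3 or 4) and 6 weeks (-0.56 ± 0.15, adjusted p = 0.0048) and was not called in males (0.22 ± 0.19, adjusted p = 0.423). Adam2, Adam5, Adam1a and Adam1b are known from sperm. Adam5 reached at most 0.816 CPM in female 6-week hearts and was called higher there (0.68 ± 0.18, adjusted p = 0.00564), a value near the limit set on low genes. Only induced hearts reached 0.5 CPM of Adam5, so it passed the filter through the groups where it was high. Its calls are therefore a description, also where they are counted with those of other members. Adam2 was lower in females in the fit of all hearts (-0.65 ± 0.15, adjusted p = 0.00142), with -0.28 ± 0.29 (adjusted p = 0.511) in males. Adam1a was at 4.31, 5.18, 4.25 and 5.93 CPM in female controls and 3.85, 0.558, 0.913 and 0.709 CPM in female 6-week hearts, and the 3 low hearts were replicates 2, 3 and 4, which were among the 5 libraries low in nuclear RNAs. Those 5 libraries held 0.364 to 0.913 CPM of Adam1a and the other 15 female libraries 3.06 to 5.93 CPM, and Adam1b (0.0405 to 0.409 against 0.954 to 2.32 CPM), Adam22 (6.401 to 7.76 against 8.02 to 13.7 CPM) and Adamts10 (16.7 to 29.02 against 31.8 to 62.4 CPM) were separated in the same way. No other member was, and the share of all genes separated in this way was not counted. The female 6-week change of Adam1a was -1.68 ± 0.49 (adjusted p = 0.00897) in all hearts and -0.31 (adjusted p = 0.329) without the 5 libraries, that of Adam1b -1.28 ± 0.36 (adjusted p = 0.00802) and -0.64 (adjusted p = 0.0818), and that of Adam22 -0.40 (adjusted p = 0.14) without them. Neither Adam1a nor Adam1b was called in males (-0.34 ± 0.21, adjusted p = 0.242 and -0.19 ± 0.17, adjusted p = 0.444).

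The 3 procollagen N-proteinases, which remove the amino-terminal propeptides of fibrillar collagens, did not move together. Adamts2, the main enzyme for procollagens I and III, was at 22.6, 24.6 and 37.6 CPM in male controls and 93.99, 102 and 97.5 CPM in male 6-week hearts. Female values were 26.6, 24.3, 30.9 and 29.2 CPM in controls and 93, 118, 153 and 108 CPM at 6 weeks. All induced hearts lay above all controls at every week, with 1-week hearts at 122 to 132 CPM in males and 99.2 to 168 CPM in females. The 6-week change was 1.80 ± 0.18 (adjusted p = 3.17e-07) in males and 2.05 ± 0.17 (adjusted p = 9.84e-09) in females, and 1.73 (adjusted p = 5.52e-05) in females without the libraries low in nuclear RNAs. Adamts3, which cuts procollagen II and activates VEGF-C, fell in males at 1, 3 and 6 weeks (log2 fold changes -0.46, -0.56 and -0.48, adjusted p = 0.0312 at 6 weeks) and was not called in females (-0.44 ± 0.22, adjusted p = 0.11). In males its 1-week call was lost without control replicate 1 or 3 or 1-week replicate 1, and its 6-week call without control replicate 1 or 3, without 6-week replicate 1, without replicate 4 (-0.36, adjusted p = 0.119) and with scaling to total reads (-0.31, adjusted p = 0.265). Adamts14 was not called in either sex at any week, at 0.39 ± 0.23 (adjusted p = 0.217) and -0.40 ± 0.21 (adjusted p = 0.135) at 6 weeks.

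Among the proteoglycanases, which cleave aggrecan, versican and related proteins, 2 of 6 tested were called higher and 1 lower in males at 6 weeks, and 4 of 7 higher and none lower in females. Adamts15 was at 8.99, 7.38 and 7.88 CPM in male controls and 34.9, 51.5 and 34.4 CPM in male 6-week hearts. Among females it was at 7.41, 5.76, 8.51 and 9.09 CPM in controls and 32.6, 38.4, 51.8 and 49.6 CPM at 6 weeks. No induced heart of any week reached down to the controls, and the change was 2.23 ± 0.19 (adjusted p = 3.95e-08) in males and 2.41 ± 0.17 (adjusted p = 8.25e-10) in females. Over omissions of 1 heart it ran from 2.04 to 2.33 in males and from 2.28 to 2.53 in females, always called.

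Adamts8, an anti-angiogenic member whose gene starts 19.9 kb from that of Adamts15 on chromosome 9 and runs the opposite way, was much lower in level. It was at 0.637, 0.265 and 1.11 CPM in male controls and 1.82, 1.55 and 1.21 CPM at 6 weeks (0.85 ± 0.28, adjusted p = 0.0301). The female hearts were at 0.9903, 0.581, 0.5003 and 0.665 CPM in controls and 2.06, 9.54, 2.704 and 2.93 CPM at 6 weeks (1.81 ± 0.33, adjusted p = 1.99e-04). The highest value, 9.54 CPM, was in replicate 2, the heart with 729 CPM of atrial markers, and the highest 1-week value, 3.24 CPM, was in the 1-week heart with 119 CPM of them. Without 6-week replicate 2 the female change was 1.38 (adjusted p = 3.88e-04). The male 6-week call was lost without control replicate 1 or 3 and without 6-week replicate 1 or 3 (log2 fold change 0.57 to 1.11 over omissions of 1 heart), and by edgeR. The male calls at 1 and 3 weeks were likewise lost without control replicate 3, and the 3-week call also without control replicate 1 or 3-week replicate 2 or 4 (limma, adjusted p up to 0.058 and 0.1995). The female calls at 1 and 3 weeks were lost without control replicate 2, 3 or 4, without 1-week replicate 2 or 4, and without any 1 of the 3-week hearts.

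Adamts4 (aggrecanase) spread widely within groups, at 1.69, 0.606 and 2.02 CPM in male controls and 14.01, 4.73 and 1.56 CPM in male 6-week hearts, and at 0.215, 0.2903, 2.75 and 1.44 and 13, 10.9, 12.1 and 2.898 CPM in females. It was called at 1 week in both sexes (1.99 ± 0.59, adjusted p = 0.0136 and 2.60 ± 0.55, adjusted p = 0.00122) and at 6 weeks in females (2.71 ± 0.55, adjusted p = 5.35e-04) but not in males (1.56 ± 0.63, adjusted p = 0.0727), and the male 1-week call was lost without control replicate 3. Adamts5, the other main aggrecanase, was called in females at every week (0.78, 0.86 and 1.24) and in males at 1 week (0.87 ± 0.26, adjusted p = 0.0146, a call lost without control replicate 1), with 58.05, 58.6 and 30.9 CPM in male 6-week hearts against 23.3, 29.4 and 33.5 CPM in controls. The last of those 6-week hearts was replicate 4, and without it the male change was 1.02 (adjusted p = 0.00989). Adamts1, whose gene lies 53.1 kb from Adamts5 on chromosome 16, was not called in either sex at any week. Adamts9 was lower in males at 6 weeks (-0.71 ± 0.21, adjusted p = 0.0153), a call lost without control replicate 4, 6-week replicate 1 or replicate 4 (the last, -0.62, adjusted p = 0.0561), and in females at 3 weeks (-1.04 ± 0.20, adjusted p = 3.60e-04), and Adamts20, tested in females, was not called.

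The COMP-cleaving pair was called in opposite directions at 1 week, though both male calls were lost without 1 heart. Adamts7, which also acts in vascular smooth muscle, was at 25.5, 26.4, 29.2 and 27.5 CPM in female controls and 9.67, 7.002, 10.2 and 9.12 CPM at 6 weeks (-1.55 ± 0.23, adjusted p = 1.88e-05). In males it was at 28.4, 32.04 and 28.3 and 15.4, 16.5 and 27.4 CPM (-0.61 ± 0.28, adjusted p = 0.113), and it was called lower at 1 and 3 weeks in both sexes. The male 1-week call was lost without control replicate 3 (limma, adjusted p = 0.0561), the male 3-week call without control replicate 1 or 3 or 3-week replicate 3 (limma, adjusted p up to 0.0881) and the female 3-week call without control replicate 3 or 3-week replicate 3 (limma, adjusted p up to 0.0689). Without male 6-week replicate 4 the male 6-week change was -0.87 (adjusted p = 0.0354). Adamts12 was called higher at 1 week in both sexes (0.80 ± 0.27, adjusted p = 0.0263 and 1.08 ± 0.27, adjusted p = 0.00519) and at no later week. In males its change ran from 0.50 to 1.12 over omissions of 1 heart, and the call was lost without control replicate 1 or 3 or 1-week replicate 1 or 2 (limma, adjusted p up to 0.181). Adamts17, a fibrillin-linked protease mutated in a Weill-Marchesani-like syndrome, was the member called lower in both sexes at 6 weeks. It was at 1.199, 1.36 and 2.39 CPM in male controls and 0.704, 0.318 and 0.327 CPM at 6 weeks (-1.16 ± 0.22, adjusted p = 4.64e-04). In females it was at 1.38, 1.11, 1.55 and 2.05 CPM in controls and 0.714, 0.7303, 0.597 and 0.617 CPM at 6 weeks (-0.78 ± 0.19, adjusted p = 0.00229). The groups did not overlap, at levels close to 1 CPM, and without the libraries low in nuclear RNAs the female value was -0.72 (adjusted p = 0.0526).

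Adamts10 and Adamts6, a homologous pair that acts on fibrillin microfibrils, were not called at any week in either sex. Adamts10 was at 42.4, 22.5, 24.5 and 23.7 CPM in female 6-week hearts, where the low values were those of replicates 2, 3 and 4, and its female 3-week change went from 0.61 ± 0.25 (adjusted p = 0.0736) to 0.61 (adjusted p = 2.87e-04) without the libraries low in nuclear RNAs. Adamts19, a valve-associated member tested in females, was lower at 3 weeks (-0.81 ± 0.25, adjusted p = 0.0173, a call lost without control replicate 4) and not at 6 weeks (-0.27 ± 0.25, adjusted p = 0.398).

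ADAMTS-like proteins were called higher in 3 of 5 cases in males at 6 weeks and none lower, and in females 2 of 5 were higher and 2 lower. Adamtsl1 (punctin) had the highest mean rise over the sexes among members called in both. It was at 0.862, 1.06 and 1.06 CPM in male controls and 8.23, 11.8 and 6.83 CPM in male 6-week hearts. Female values were 1.38, 1.403, 2.05 and 2.27 CPM in controls and 9.24, 12.5, 23.99 and 9.43 CPM at 6 weeks, with no overlap. The change was 2.63 ± 0.28 (adjusted p = 7.99e-07) in males and 2.56 ± 0.25 (adjusted p = 6.77e-08) in females, against 2.00 and 1.46 at 1 week. In females the step from 1 to 6 weeks was 1.10 ± 0.25 (adjusted p = 0.0296), a call lost without 1-week replicate 1, 3 or 4, without 6-week replicate 2 or 3, and without the libraries low in nuclear RNAs.

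Adamtsl2, which binds fibrillin and the latent TGFβ binding protein and is mutated in geleophysic dysplasia, had another course in each sex. Among females it was at 60.1, 49.2, 43.9 and 58.4 CPM in controls, 48.5, 36.8, 40.4 and 32.3 CPM at 1 week, 27.8, 11.7, 14.02 and 25.5 CPM at 3 weeks and 12.96, 13.4, 14.8 and 13.5 CPM at 6 weeks. The 6-week hearts lay close together and far below all controls, and the change was -1.90 ± 0.21 (adjusted p = 3.44e-07), or -1.98 (adjusted p = 0.00121) without the libraries low in nuclear RNAs. In males it was at 23.9, 15.4 and 32.9 CPM in controls, 48.6, 38.1, 38.1 and 38.2 CPM at 1 week, 26.7, 21.6, 21.1 and 15.4 CPM at 3 weeks and 16.8, 21.8 and 18.8 CPM at 6 weeks. All male 1-week hearts lay above all controls (0.80 ± 0.20, adjusted p = 0.00443, a call lost without control replicate 3), and the 6-week value was -0.27 ± 0.21 (adjusted p = 0.38). From 1 to 6 weeks it fell in both sexes (-1.07 ± 0.20, adjusted p = 0.0348 and -1.48 ± 0.21, adjusted p = 4.11e-04), though the male call was lost without 1-week replicate 1, 2, 3 or 4 or 6-week replicate 3 or 4, and the female call (-1.58, adjusted p = 0.146) without the libraries low in nuclear RNAs. In females it also fell from 1 to 3 weeks (-1.06 ± 0.21, adjusted p = 0.026), a call lost without 1-week replicate 1 or 3, without 3-week replicate 2 or 3 and without the libraries low in nuclear RNAs. The difference between the courses in males and females was not tested, since each sex was fitted alone.

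Adamtsl3, a relative of Adamtsl1, was higher at 6 weeks in males (0.72 ± 0.24, adjusted p = 0.0331; without replicate 4, 0.69, adjusted p = 0.0719, and lost also without control replicate 1 or 3 or 6-week replicate 3) and females (0.66 ± 0.17, adjusted p = 0.00396), and the latter was 0.28 (adjusted p = 0.456) without the libraries low in nuclear RNAs. Adamtsl4, a fibrillin-binding protein mutated in ectopia lentis, was lower in females (-0.67 ± 0.11, adjusted p = 5.30e-05), at 67.8, 68.9, 50.7 and 51.3 CPM in controls and 39.6, 34.6, 35.5 and 38.2 CPM at 6 weeks, and was 0.18 ± 0.20 (adjusted p = 0.552) in males. Adamtsl5 was called higher in males (0.63 ± 0.20, adjusted p = 0.0237), where it was at 102, 108 and 87.1 CPM in controls and 138, 104 and 251 CPM at 6 weeks. The last value, from replicate 4, stood far above the others, and without that heart the change was 0.28 (adjusted p = 0.113), while omitting control replicate 4 also ended the call. The same heart had the lowest nuclear-RNA sum of the males, 1076 CPM, and the highest Il11, 819 CPM.

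Some of the variation between hearts of a group ran with clock genes. Arntl and Npas2, which drive the circadian clock and rise while Dbp, a clock output gene, falls, summed to 2.14 to 28.6 CPM over the male libraries and 2.42 to 42.1 CPM over the female ones. In 8 of 10 groups the heart with the highest Adam19 was the heart with the highest Arntl and Npas2, and for Adamts4 in 7 of 10, whereas no other member matched in more than 5. The share of all genes that match as often was not counted. The most marked case was the uninduced female replicate 2, with 42.1 CPM of the clock activators, 2.33 CPM of Dbp and 73.9 CPM of Adam19 against 26.2 to 32.7 CPM in the other uninduced females. With the logarithm of Arntl and Npas2 as a covariate, a setting chosen after the data were seen, Adam19 had log2 fold changes of 0.28 (adjusted p = 0.102), 0.89 (adjusted p = 7.37e-05) and 0.88 (adjusted p = 1.19e-04) at 1, 3 and 6 weeks in males. In females the values were 0.73 (adjusted p = 0.00493), 0.95 (adjusted p = 7.12e-04) and 0.68 (adjusted p = 0.00771). Adamts4 was at 1.59 (adjusted p = 6.11e-04) in males and 2.02 (adjusted p = 4.50e-04) in females at 6 weeks, and at 2.00 (adjusted p = 4.15e-05) and 1.60 (adjusted p = 0.00441) at 3 weeks. Arntl and Npas2 also differed between groups, at 2.47 to 4.5 CPM in female 3-week hearts and 26.8, 23.7, 20.2 and 3.79 CPM at 6 weeks. The covariate therefore also acts on differences between groups, and the values adjusted for it cannot tell these apart from differences between hearts. The sampling time of the hearts is not given in the sources used here, and the part of the clock genes in these differences was not tested otherwise.

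**Figure D3:**
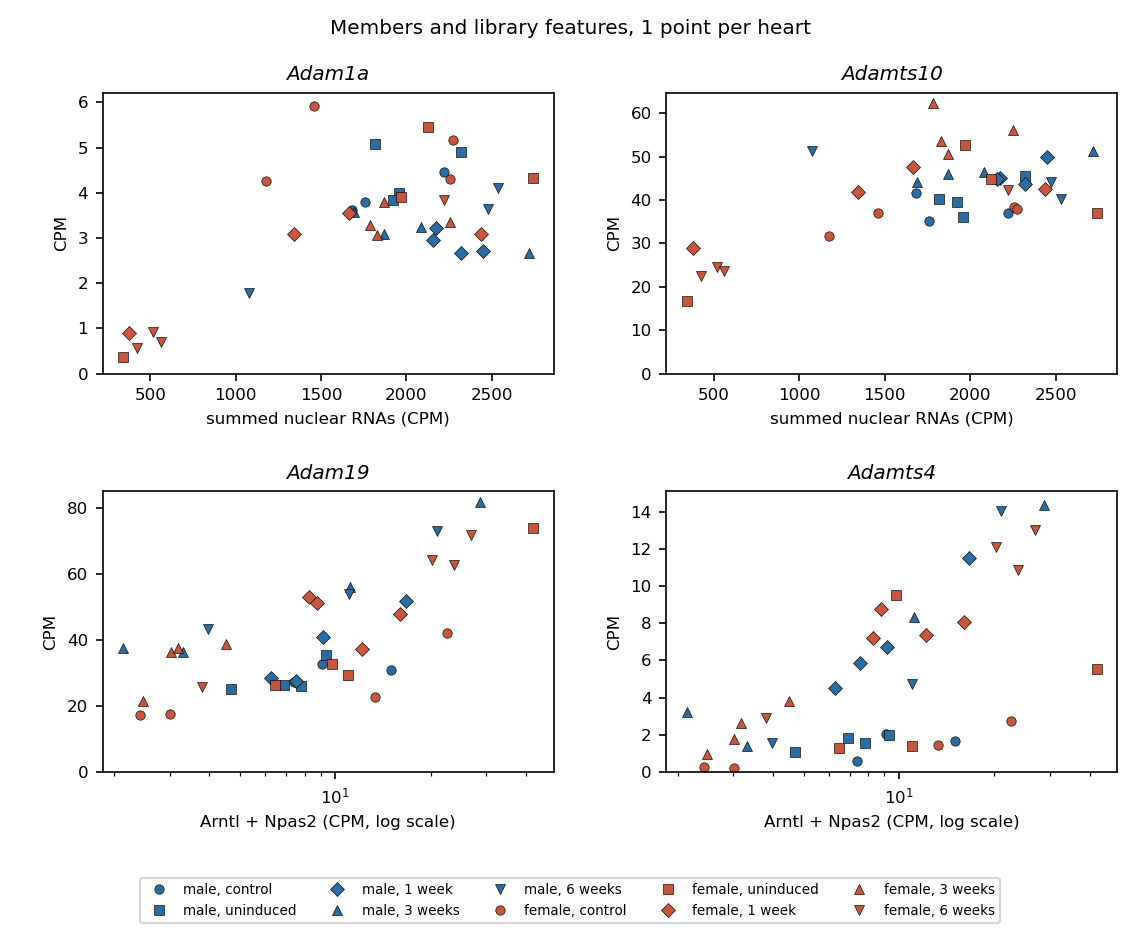
CPM of Adam1a and Adamts10 against the summed nuclear RNAs (upper row, CPM, linear) and of Adam19 and Adamts4 against Arntl and Npas2 (lower row, CPM, log axis), with a point per heart, sex by colour and group by symbol. The 5 female libraries at 341 to 560 CPM of nuclear RNAs hold the lowest Adam1a and Adamts10 of the female hearts, and hearts with more Arntl and Npas2 tend to hold more Adam19 and Adamts4.

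Uninduced hearts, with low but measurable Il11 and no tamoxifen, had few members called. In males 1 member, Adamts2, was called higher (0.75 ± 0.17, adjusted p = 0.0409; all genes, 0.597%). In females 3 were called higher, namely Adam11 (0.75 ± 0.20, adjusted p = 0.0434), Adamts15 (1.00 ± 0.17, adjusted p = 0.00178) and Adamts2 (0.86 ± 0.17, adjusted p = 0.00707), and Adamtsl4 lower (-0.41 ± 0.11, adjusted p = 0.0425), against 2.87% of all genes. The Adamtsl4 call was lost without control replicate 1 or 2 or uninduced replicate 2 or 3 (limma, adjusted p up to 0.166), with median-of-ratios scaling, with scaling to total reads, with only the 2 groups in the fit and with the clock covariate, and the Adam11 call without any 1 control or uninduced replicate 3. Adamts2 was at 57.7, 33.5, 51 and 48.9 CPM in uninduced males and 52.01, 39.7, 54.7 and 57.1 CPM in uninduced females, and Adamts15 at 15.2, 9.22, 13.5 and 15.5 and 14.8, 13.6, 19.5 and 15.3 CPM. These values lay between those of controls and of induced hearts, apart from 1 male with 33.5 CPM of Adamts2, inside the control range. The male call of Adamts2 was lost without control replicate 1 or 3 and without uninduced replicate 1, 3 or 4. Uninduced female replicate 3, the heart with the highest Il11 of its group, 49.1 CPM, held the highest value of its group for 12 of the 36 listed members and the lowest for 8, where the other 3 hearts held the highest for 5 to 10 and the lowest for 5 to 16. It had the highest Adam11 (39.2 CPM) and Adamts15 (19.5 CPM) and the lowest Adamts7 (8.199 CPM), but also the lowest Adamtsl1 (1.014 CPM) and Adamtsl3 (6.347 CPM), and its Adamts2 (54.7 CPM) was below that of replicate 4. Of calls of at least 1 log2 unit, 0 members were called in uninduced hearts of either sex by limma (all genes, 0.384% in males and 0.773% in females). Without replicate 3 the female changes were 0.45 (adjusted p = 0.0883) for Adam11, 0.90 (adjusted p = 0.00887) for Adamts15 and 0.82 (adjusted p = 0.0271) for Adamts2.

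Set against uninduced hearts instead of controls, 12 male members were called at 6 weeks, with Adam11, Adam12, Adam15, Adam19, Adam23, Adam33, Adamts15, Adamts2, Adamts5 and Adamtsl1 higher and Adamts17 and Adamts9 lower, against 20.4% of all genes, 13% higher and 7.4% lower. In females 13 were called, with Adam11, Adam12, Adam5, Adam9, Adamts15, Adamts2, Adamts5, Adamts8 and Adamtsl1 higher and Adam2, Adamts17, Adamts7 and Adamtsl2 lower, against 22.8% of all genes, 13.7% higher and 9.08% lower, and 6 without the libraries low in nuclear RNAs (all genes, 5.87%). Of at least 1 log2 unit, 7 members were called in each sex (all genes, 5.6% in males and 5.63% in females). Adamts2 was then 1.05 ± 0.17 (adjusted p = 1.50e-04) in males and 1.2 ± 0.17 (adjusted p = 3.20e-05) in females, and Adamts15 was 1.56 ± 0.18 (adjusted p = 3.09e-06) and 1.41 ± 0.17 (adjusted p = 4.03e-06).

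The changes were mostly present by 1 week. In males 9 members were called higher at all 3 weeks (Adam9, Adam11, Adam12, Adam15, Adam33, Adamts2, Adamts8, Adamts15 and Adamtsl1) and 2 lower (Adamts3 and Adamts17), against 10.8% and 5.78% of all genes. In females 10 were called higher at all 3 weeks (Adam5, Adam9, Adam11, Adam12, Adamts2, Adamts5, Adamts8, Adamts15, Adamtsl1 and Adamtsl3) and 2 lower (Adamts7 and Adamts17), against 12.3% and 8.78% of all genes, but these counts rest on the same controls throughout. Among these members Adam5 had passed the filter only through induced hearts. Calls kept at all 3 weeks under every omission of 1 heart were those of Adam11, Adam12, Adamts2, Adamts15 and Adamtsl1 in males, and of the same 5 with Adam9 and Adamts5 in females. For this too the share over all genes was not counted. Between weeks, Adamtsl2 was the member called in males, from 1 to 6 weeks (all genes, 0.165%), and in females Adamtsl2 was called from 1 to 3 weeks (all genes, 0.218%) and Adamtsl1 and Adamtsl2 from 1 to 6 weeks (all genes, 1.03%). Male members called between 1 and 3 weeks numbered 0 by limma (all genes, 0.0177%) and by edgeR, 1 by DESeq2 (all genes, 1.67%) and 4 at an unadjusted p under 0.05 (all genes, 16%). Between 3 and 6 weeks limma called 0 members in either sex and 0% of all genes, edgeR 0 in males and 0 in females, and DESeq2 0 and 4 (all genes in females, 0.69%). At an unadjusted p under 0.05 there were 2 male and 16 female members for that step, against 6.33% and 15.2% of all genes.

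Most members called higher at 6 weeks in a sex were called higher in the other too, though for males the share was near that of all genes. At 6 weeks 10 members were called higher in both sexes (Adamtsl1, Adam12, Adamts15, Adamts2, Adam11, Adamts8, Adam19, Adam9, Adamtsl3 and Adam15), which is 76.9% of those called higher in males and 71.4% of those in females. Over all genes the shares were 78.4% and 58.4%. Adamts4, with the largest female change (2.71), was not called in males at that week, and neither were Adamtsl2, Adam1a and Adamts7, with the largest female falls. Adamts17 was the member called lower in both, 33.3% of the 3 in males and 12.5% of the 8 in females (all genes, 62.5% and 32.2%), and no member was called in opposite directions at any week. Over the 33 members tested in both sexes, the male and female log2 fold changes had a Pearson correlation across genes of 0.912 at 1 week, 0.914 at 3 weeks and 0.843 at 6 weeks, beside 0.825, 0.907 and 0.83 over all 16601 shared genes. The sign agreed for 27, 31 and 24 of the 33. Neither for the sign nor for calls in opposite directions was the share over all genes counted. The scatter of male against female changes shows the members off the diagonal at 6 weeks, Adamtsl2 (-0.27 in males, -1.90 in females), Adam1a (-0.34 and -1.68) and Adam1b (-0.19 and -1.28) among them, and these differences were not tested.

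**Figure D4:**
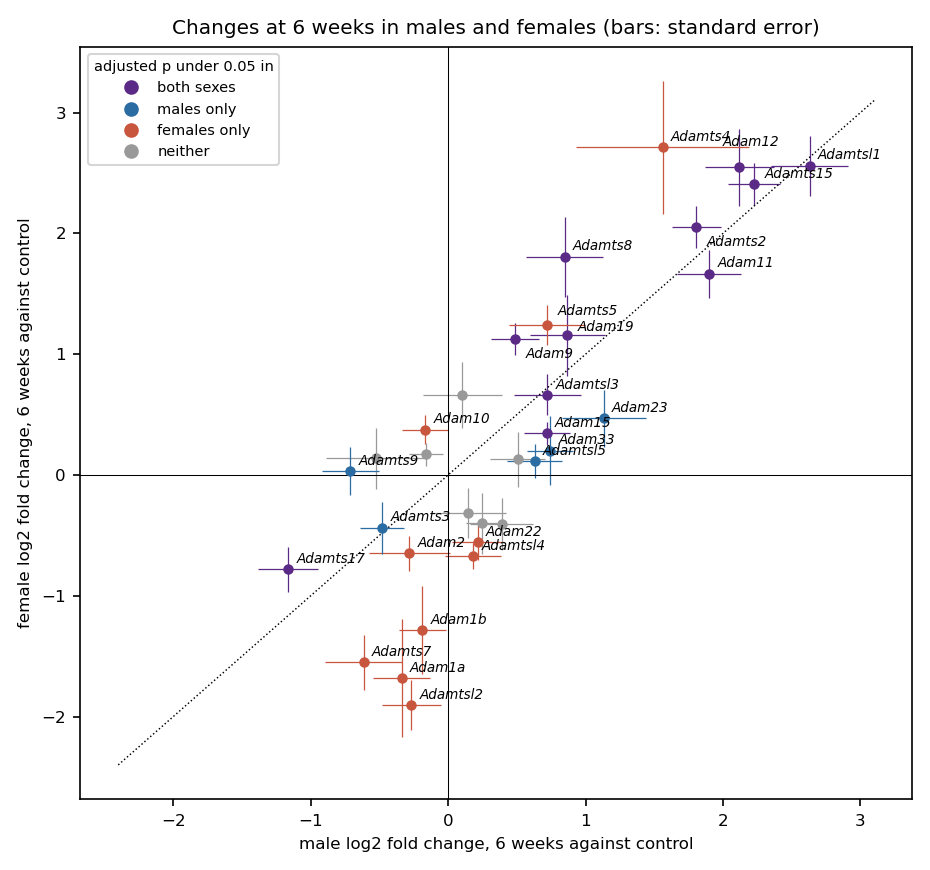
Log2 fold change at 6 weeks against control in males (horizontal) and females (vertical) of the 33 members tested in both, with standard errors as bars, colour for the sexes in which the adjusted p was under 0.05 and a dotted line of equal change. The 10 members called higher in both sexes lie to the upper right, and Adamtsl2, Adam1a, Adam1b and Adamts7 lie below the line.

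Compared per length, Adamtsl5 was the highest member in controls of both sexes, at 15.4 CPM per kilobase of exons in males and 13.4 in females (mean of 3 or 4 hearts). Adam9 came next in males at 12.2 and the third in females at 9.498, after Adamtsl4 at 11.3, and at 6 weeks it was at 17.5 and 21.03, the latter the highest of the female members. Adamts2 went from 2.99 to 10.3 CPM per kilobase in males and from 2.93 to 12.5 in females, which took it from rank 10 to 5 and from rank 12 to 3. Adamts15 rose from 0.772 to 3.85 and from 0.734 to 4.11. Adam12, in spite of its large fold change, stayed low, going from 0.0906 to 0.531 in males and from 0.0824 to 0.729 in females. Neighbouring ranks could be nearly equal, as for Adam19 and Adamts1 in male 6-week hearts (7.75 and 7.73). Lengths were those of the merged exons in GENCODE vM39, which need not match the annotation used for counting.

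**Figure D5:**
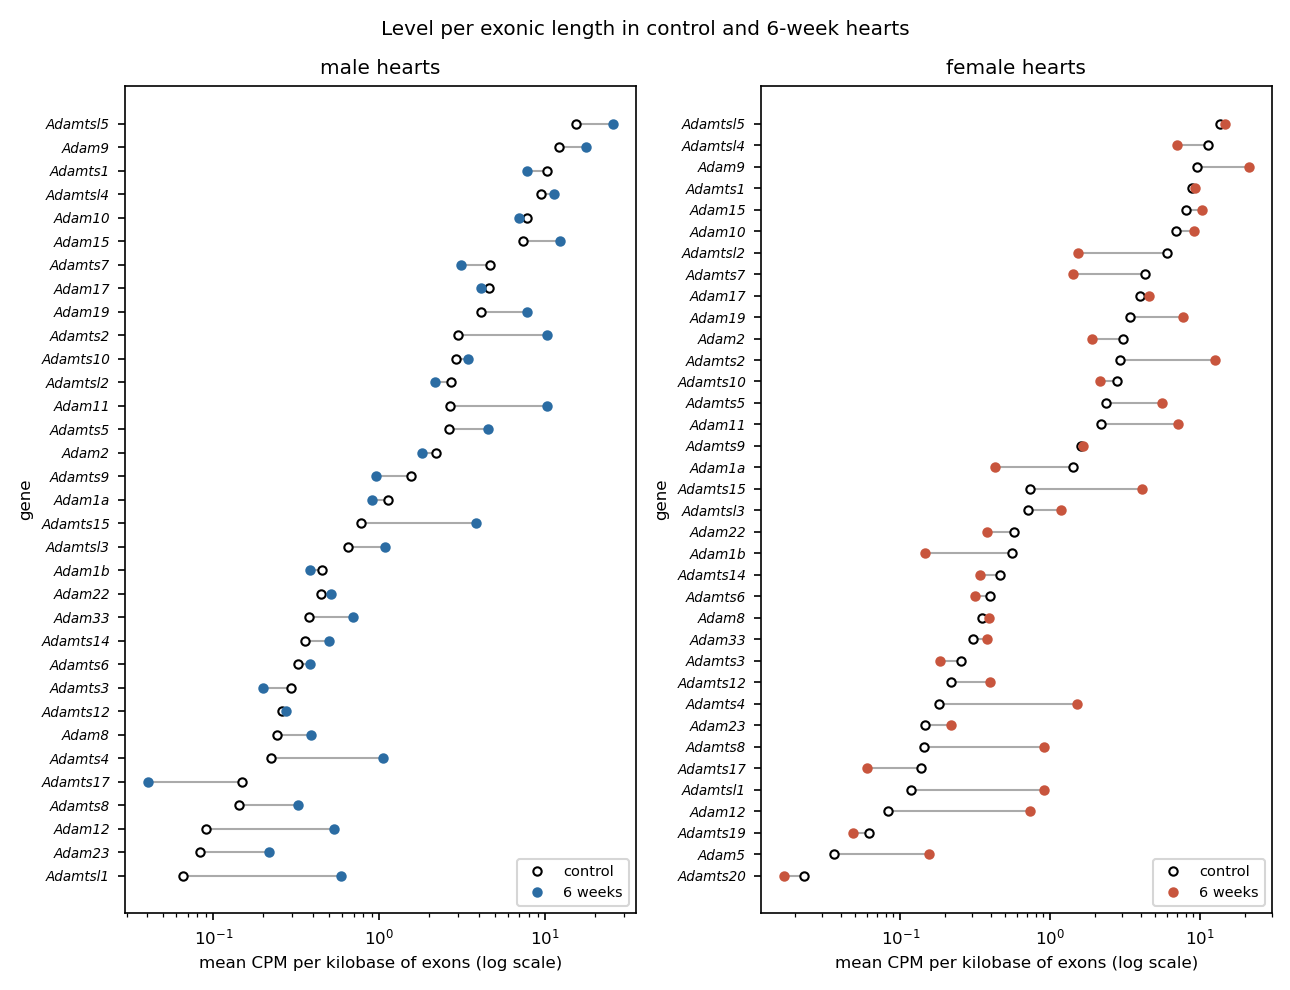
Mean CPM per kilobase of exons (horizontal, log scale) of each tested member in control hearts (open circles) and 6-week hearts (filled circles), males on the left and females on the right, ordered by the control level. Adamts2, Adamts15, Adam11, Adamts4, Adamts8, Adam12 and Adamtsl1 show the long lines of a large rise, and Adam9 and Adamtsl5 lie at the top of the scale.

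Genes that act with the family were read from lists of inhibitors, partners and substrates, beside 16.2% of all genes called higher and 10.9% lower in males at 6 weeks and 21.7% and 21% in females. Of 6 inhibitors, 3 were called higher and 1 lower in males at 6 weeks, and 3 higher and 2 lower in females. Timp1, a broad metalloproteinase inhibitor, had a log2 fold change of 4.54 ± 0.38 (adjusted p = 3.03e-08) in males and 4.99 ± 0.44 (adjusted p = 1.73e-08) in females, and Timp4, the inhibitor typical of heart, had values of -1.85 ± 0.48 (adjusted p = 0.00689) and -3.24 ± 0.25 (adjusted p = 2.23e-09). Timp2, a broadly expressed inhibitor, was 1.22 ± 0.12 (adjusted p = 3.70e-07) in males and 1.38 ± 0.17 (adjusted p = 2.49e-06) in females, and A2m, a plasma protease trap that inhibits ADAMTS enzymes, was 2.21 ± 0.53 (adjusted p = 0.00421) and 3.06 ± 0.34 (adjusted p = 4.89e-07). Of 19 matrix substrates tested, 14 were called higher and 1 lower in males (median 1.57) and 17 higher and none lower in females (median 2.11). Comp, cleaved by Adamts7 and Adamts12, was 6.17 ± 0.29 (adjusted p = 1.37e-11) and 7.08 ± 0.41 (adjusted p = 3.86e-11), and Col3a1, a procollagen substrate of Adamts2, was 3.72 ± 0.28 (adjusted p = 6.23e-09) and 4.08 ± 0.20 (adjusted p = 4.12e-12). Of 30 shed substrates and receptors, 16 were higher and 4 lower in males and 17 higher and 3 lower in females, with Vcam1 at 2.36 ± 0.19 (adjusted p = 2.52e-08) and 2.49 ± 0.23 (adjusted p = 2.73e-08) and the TNF receptor gene Tnfrsf1b at 1.74 ± 0.16 (adjusted p = 9.63e-08) and 2.08 ± 0.16 (adjusted p = 1.46e-09). Il11ra1, the IL11 receptor gene and named here after its values were seen, was 0.74 ± 0.17 (adjusted p = 0.00277) and 0.71 ± 0.13 (adjusted p = 2.48e-04). Of 13 partners and activators, 4 were higher in males and none lower, and in females 6 were higher and 3 lower, the latter 3 near the share of all genes. The largest mean changes over the sexes were those of the proprotein convertase gene Pcsk5 (1.01 ± 0.23, adjusted p = 0.00268 and 1.43 ± 0.21, adjusted p = 1.42e-05) and the ADAM10-associated tetraspanin gene Tspan17 (1.31 ± 0.16, adjusted p = 3.41e-06 and 0.96 ± 0.15, adjusted p = 2.55e-05).

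RefSeq promoters (GRCm38.p6), of which the 250 bases before the start were searched, matched 21 members with 23 promoters. The letters TTCNNNGAA, on either strand, were in 0 of these members and in 7.02% of 32851 promoters of the same length. TGANTCA, on either strand, was in 1 member, Adam19, and in 6.75% of all promoters. The counts are per member and the shares per promoter, so they are not on the same footing. No promoter of Adam9, Adam11, Adam12, Adamts4, Adamts5, Adamts8, Adamts15 or Adamtsl1 was among those searched, so nothing is known here of these members.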

How the data were processed

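Polyadenylated RNA of 40 hearts was sequenced with a strand-keeping kit and paired 60-base reads. Per the study's methods the authors aligned reads with STAR to GRCm39, counted them per gene with featureCounts. How the values were scaled is not given in the sources used here. The deposited values, 1 table per sex, are a signal, gene counts divided by 1 factor per library (CPM on a normalized library size). Whole reads were recovered from the steps between low values, with all values within 0.001 of a whole read. The 2 male libraries with conflicting labels were left out, and 38 were used.

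Genes with at least 0.5 CPM in at least 3 libraries were tested with limma 3.58.1 (R 4.3.3) on log2(CPM + 0.5), all groups of a sex in 1 fit with the empirical Bayes trend, and p-values were adjusted by Benjamini-Hochberg over all tested genes. These p-values measure the spread between mice. Alternatives were edgeR 4.0.16 and DESeq2 1.42.0 on recovered reads, other pseudocounts, filters and scalings, a replicate block and leaving out each heart. Clock genes as a covariate and leaving out libraries under 600 CPM of nuclear RNAs were added after seeing the data. Replicate numbers did not pair hearts of different groups: the mean correlation of deviations of same-numbered hearts was 0.0132 in males and 0.0255 in females. Steps were tested on simulated data with known changes. Tables and figures were made with Python 3.11.15, pandas 2.3.3, scipy 1.17.1 and matplotlib 3.10.9. Values in every library were given for the 8 members with the largest mean rise over the sexes, and up to 4 with the largest fall, among those called in the same direction in both sexes at 6 weeks, for up to 4 called between weeks or in uninduced hearts, and for Adam10 and Adam17. Of each list outside the family at most 4 genes with the largest change were named. The members and lists were chosen with earlier results of these data known. Reads on listed genes, 16663513 to 65333832 per male and 19147947 to 30929192 per female library, limit precision for members near 1 CPM.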

Additional observations from a re-analysis of the deposited data

Results flagged for a closer look

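Of 96 groups of 4 hearts looked at for the 12 members with values in every library, 10 held a heart whose gap to the next was large against the range of its group, where chance gives about 1 in 20. The same hearts recur over members, so the groups are not independent and 10 cannot be read as an excess over that rate. Adam11 was at 48.15 CPM in female 6-week replicate 3, against 37.26 to 38.53 CPM in the other 3, and at 39.23 CPM in female uninduced replicate 3, against 15.75 to 18.77 CPM. Adam12 was at 9.114 CPM in female 1-week replicate 2, against 5.595 to 6.189 CPM, and at 3.708 CPM in male 1-week replicate 4, below the 6.284 to 6.795 CPM of the others. Adam19 stood apart in 3 groups, at 21.36 CPM in female 3-week replicate 2 (others 36.25 to 38.69 CPM), at 73.95 CPM in female uninduced replicate 2 (others 26.22 to 32.66 CPM) and at 35.44 CPM in male uninduced replicate 4 (others 25.14 to 26.22 CPM). These were the hearts with the lowest or highest Arntl and Npas2 of their groups. Adamts17 was at 1.6 CPM in female 1-week replicate 2, against 0.6047 to 0.7527 CPM. Adamts8 was at 9.537 CPM in female 6-week replicate 2, against 2.061 to 2.929 CPM. Adamtsl2 was at 48.64 CPM in male 1-week replicate 1, against 38.1 to 38.16 CPM.

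A signal also appeared in data the comparisons do not use. The male library titled as a control, whose labels conflict, held 511.2 CPM of Il11, against at most 0.1465 CPM in the male controls used.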

How the results depend on the processing

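With a log2 fold change of at least 1 required beside the adjusted p, the members called were 7, 5 and 7 at 1, 3 and 6 weeks in males and 9, 8 and 14 in females, 0 in uninduced hearts of either sex, and 7 in each sex at 6 weeks against uninduced hearts. The call in uninduced males rested on its settings, with 0 members at a pseudocount of 2, by edgeR, with only the 2 groups in the fit and with the replicate block, and 2 by DESeq2 or with scaling to total reads. In uninduced females 2 members were called with only the 2 groups in the fit and 2 with the clock covariate. From 1 to 3 weeks DESeq2 called 1 male and 2 female members, and the female count was 0 with scaling to total reads, by edgeR, with the clock covariate and without the libraries low in nuclear RNAs. From 1 to 6 weeks a fit of just the 2 groups and the replicate block each called 0 male members, and the female count was 1 with only the 2 groups and 0 without the libraries low in nuclear RNAs. From 3 to 6 weeks DESeq2 called 4 female members. Without those libraries the female counts were 14 at 6 weeks against controls (all genes, 19.5% in place of 42.7%) and 6 against uninduced hearts (5.87% in place of 22.8%). With the replicate block the counts at 1, 3 and 6 weeks were 15, 14 and 16 in males and 17, 17 and 22 in females, though the numbers do not pair the hearts, and the block moved no other count by over 1.5 times. Leaving out 1 heart gave, in males, 9 to 16 members at 1 week (lowest without control replicate 3), 9 to 14 at 3 weeks (lowest without control replicate 1 or 3), 10 to 15 at 6 weeks (lowest without 6-week replicate 1), 0 to 2 in uninduced hearts, 8 to 13 at 6 weeks against uninduced hearts, 0 to 0 from 1 to 3 weeks, 0 to 1 from 1 to 6 weeks and 0 to 0 from 3 to 6 weeks. In females the ranges were 12 to 15, 11 to 16, 22 to 24, 2 to 5, 11 to 18, 0 to 1, 1 to 2 and 0 to 3. Scaling to total reads gave 16 members higher and 1 lower in males at 6 weeks and 18 and 5 in females, in place of 13 and 3 and 14 and 8. Over all genes it gave 3606 higher and 595 lower against 2742 and 1838 in males and 8356 and 1045 against 3678 and 3567 in females. Of 1699 alternative values for members named with every library, 1563 kept direction and side of the threshold, 100 lost the threshold, 17 passed it and 19 changed sign. The last group held small values of 3 members. Scaling to total reads gave 0.12 for Adamtsl2 in males at 3 weeks, 0.30 and 0.0232 for Adam10 in males at 1 and 6 weeks, and 0.25 and 0.0297 for Adam17 in males at 3 and 6 weeks. Adam17 in males at 3 weeks was 0.0176 with the block and 0.0095 with the clock covariate. Over omissions of 1 heart in males, Adamtsl2 ran from -0.421 to 0.11 at 3 weeks, Adam10 from -0.137 to 0.0638 at 1 week, from -0.0223 to 0.179 at 3 weeks and from -0.298 to 0.0613 at 6 weeks, and Adam17 from -0.0559 to 0.11 at 1 week and from -0.125 to 0.0444 at 3 weeks. In females at 3 weeks Adam17 was 0.26 with total reads (limma, adjusted p = 0.034). The cause of these shifts was not tested. Depth limits members near 1 CPM, such as Adamts17 and Adam5.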

Other observations

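Other genes of procollagen processing were read beside the ADAMTS N-proteinase Adamts2, from a list written after its values were seen, so that its counts are a description. Bmp1, the procollagen C-proteinase, was 2.12 ± 0.14 (adjusted p = 1.41e-09) in males and 1.78 ± 0.16 (adjusted p = 2.23e-08) in females at 6 weeks, and its enhancer gene Pcolce was 1.59 ± 0.18 (adjusted p = 1.75e-06) and 1.48 ± 0.15 (adjusted p = 1.79e-07). Of the tested genes of the list, 4 of 5 were called higher in males and 4 of 4 in females, where 16.2% and 21.7% of all genes were. Tll2, a Bmp1 relative tested in males, was -1.29 ± 0.27 (adjusted p = 0.00121).

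The 2 male libraries whose labels contradict each other were in no comparison. The one titled as a 6-week heart held 0.597 CPM of Il11, 0.438 CPM of Adam12, 30.0 CPM of Adamts2, 6.33 CPM of Adamts15 and 1.31 CPM of Adamtsl1. The library titled as a control held 511.2 CPM of Il11, 7.71 CPM of Adam12, 95.5 CPM of Adamts2, 32.9 CPM of Adamts15 and 8.78 CPM of Adamtsl1.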
